A study of Homo sapiens with 8 samples.

Results

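The genes described here are 35 genes of glycolysis and of the cellular response to low oxygen, measured in LNCaP prostate cancer cells after transfection with a small interfering RNA (siRNA) against GATA2. They were listed by name and not by their signal, and were found on the arrays through the RefSeq accession carried by each probe. Of the 35 genes, 34 had a probe that could be named in this way and passed the filter on dim probes, with 43 probes in all, among 28850 genes and 35514 probes tested. ALDOA, which encodes a form of aldolase, had no probe matched by accession and was not analysed here.

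LNCaP is a human prostate cancer cell line of luminal type. RNA from cells transfected with siGATA2 was hybridised to 4 one-colour Agilent arrays, and RNA from cells given siControl, a scrambled siRNA, to another 4. siGATA2 was used at 30 nM, and RNA was collected 72 hours after transfection, which is transient. A single cell line was used, and no source says whether the arrays of a group came from separate cultures, so p-values measure only the spread between arrays, which may be technical.

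Glycolysis splits glucose into pyruvate, which is reduced to lactate by lactate dehydrogenase or enters the mitochondria through pyruvate dehydrogenase. Most of its enzymes and glucose carriers are targets of hypoxia-inducible factor (HIF), a transcription factor whose alpha subunit is hydroxylated by oxygen-sensing prolyl hydroxylases and then degraded, so that it accumulates when oxygen is low. Normal prostate epithelium is known for an unusual metabolism in which citrate is secreted, and LNCaP cells depend less on glycolysis than androgen-independent prostate cancer lines do.

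Values are log2 of the background-corrected signal after quantile normalization, and differences are the mean of the siGATA2 arrays minus the mean of the siControl arrays, on the log2 scale, with n = 4 arrays per group. A gene was called lower or higher where the adjusted p of limma, by Benjamini-Hochberg over all 28850 genes, was under 0.05. Signals of different probes cannot be set against each other, since probes differ in how well they bind.

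The arrays did not show the targeted transcript to be lower. GATA2 gave 12.61, 12.54, 11.57 and 11.40 on siGATA2 arrays 1 to 4 and 11.74, 11.28, 11.10 and 11.29 on the siControl arrays, a difference of 0.68 (95% interval -0.04 to 1.40, adjusted p = 0.154 from limma). An exact two-sided permutation test over the 8 arrays gave p = 0.143. All directions below are therefore those between arrays as labelled. All 5 luminal prostate markers reported here, KLK2, KLK3, TMPRSS2, FOLH1 and HOXB13, were well above background on all 8 arrays, and KLK2, KLK3 and HOXB13 were called lower on the arrays labelled siGATA2. KLK3 lost its call in 6 of the 8 fits without 1 array, all but those without siGATA2 array 1 or 2, and HOXB13 in those without siGATA2 array 3 or siControl array 4. Of 7 markers of other cell types tested, 0 were called lower and 2 higher. The 2 were PTPRC and CD68, known from leukocytes, at 0.87 and 2.00. COL1A1, a fibroblast marker, was well above background on all 8 arrays and differed by -0.13. PECAM1 stayed near background on all 8 arrays. COL1A2, KRT14 and TP63 were well above background on only some arrays and were not called, at -0.21, -0.99 and 0.40. The list's summed signal, as log2, ran from 10.48 to 10.72 with siGATA2 and from 9.82 to 10.45 with siControl. The part of these markers in the results was not tested.

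The arrays also fell into closer and more distant sets within a group. Over the 34 genes, siGATA2 arrays 1 and 2 differed by a median of 0.069, arrays 3 and 4 by 0.051, and the 4 pairs across these sets by 0.34 to 0.45. siControl array 1 differed from the other 3 controls by 0.29 to 0.36, and those 3 differed from each other by 0.082 to 0.10. The titles give the siGATA2 arrays the letters A, B, E and F and the siControl arrays B, D, F and G, without saying what a letter means. If each close siGATA2 pair is taken as 1 sample, 5 of the 34 genes were called lower and 2 higher, against 8.45% and 5.11% of all genes.

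Of the 34 genes, 8 were called lower on the arrays labelled siGATA2 (23.5%) and 6 higher (17.6%), while 20 did not pass the test. Over all genes tested, 14.2% were called lower and 12.3% higher. The median signal was 11.9 for the 34 genes and 8.32 for all genes. Of the 5359 genes with a mean signal of at least 12, 21.4% were called lower and 18.2% higher, near the shares of the 34 genes. The median signal of these 5359 genes was 13.4, above that of the 34 genes. Scaled to spike-in RNA instead, 6.54% of all genes were called lower and 0.478% higher, with 5 and 0 of the 34 genes. The count called higher was 3 when siGATA2 array 3 or 4 or siControl array 2, 3 or 4 was left out. In those fits the share of all genes called higher also fell, to between 8.98% and 10.2%. The median difference was -0.035 for the 34 genes and 0.088 for all genes. Of the 34 genes, 5 were called lower and fell at least 2-fold (14.7%), against 7.13% of all genes, and 0 were called higher and rose by that much, against 4.52% of all genes. The siGATA2 arrays lay wholly below the siControl arrays for 8 genes and wholly above for 9, against 16.5% and 16.2% of all genes. Of the 5359 genes with a mean signal of at least 12, they lay wholly below for 1376 and wholly above for 1283. Of those genes, 7.28% were called lower and fell at least 2-fold, and 4.85% were called higher and rose by that much.

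**Figure D1:**
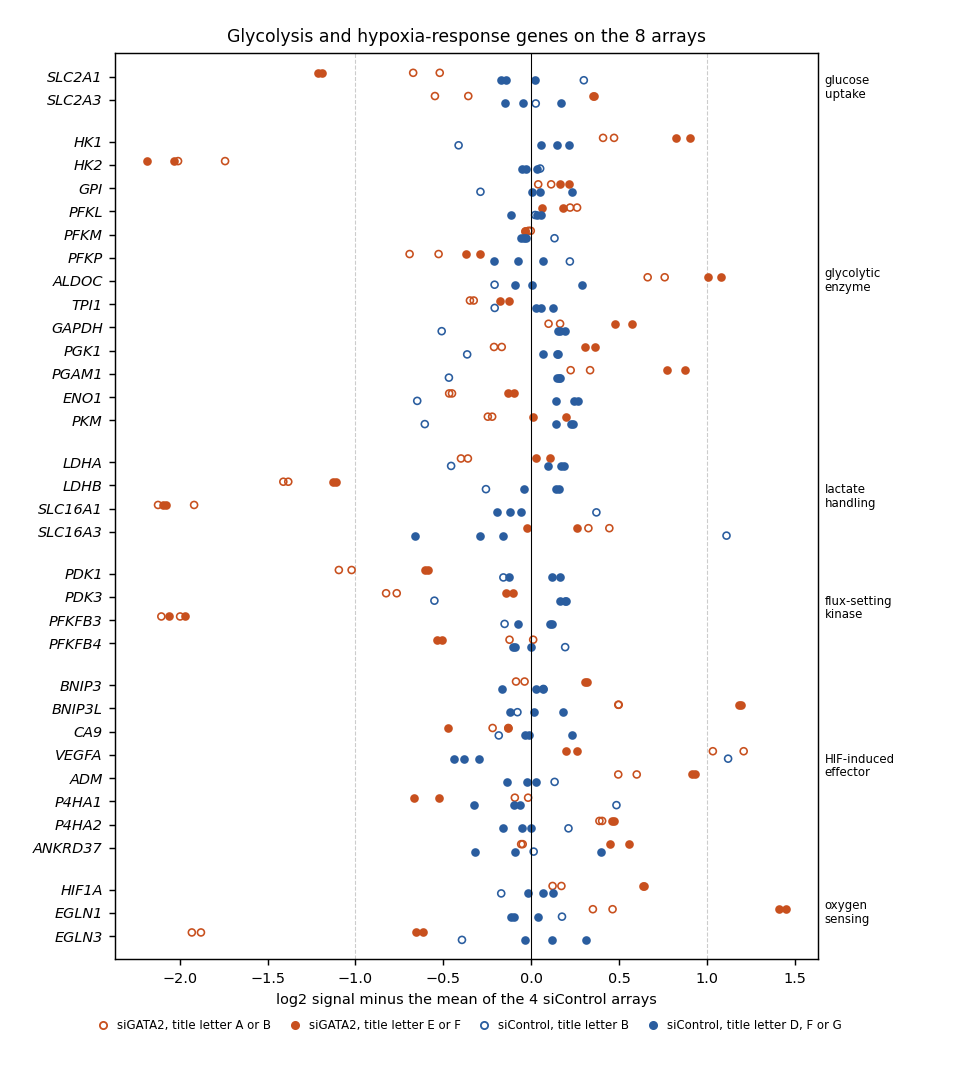
Log2 signal of the 34 genes on each of the 8 arrays, minus the mean of the 4 siControl arrays (x axis), with the genes grouped by role (y axis). Each point is 1 array, orange for siGATA2 and blue for siControl, open for title letters A and B, and the dashed lines mark a 2-fold difference. HK2, SLC16A1 and PFKFB3 lay near -2 on all 4 siGATA2 arrays, while most glycolytic enzymes lay within 1 unit of the control mean.

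The calls are given here by role. Of the 2 glucose carriers 1 was called lower and 0 higher, of the 13 glycolytic enzymes tested 2 lower and 2 higher, of the 4 lactate-handling genes 2 lower and 0 higher, and of the 4 regulatory kinases 2 lower and 0 higher. The 8 HIF-induced effector genes gave 0 lower and 3 higher, and the 3 oxygen-sensing genes 1 lower and 1 higher. These groups are too small to compare with each other, and no test of a difference between them was made.

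The promoters show how unevenly the HIF recognition core is spread over these genes. RefSeq (GRCh38.p14) gave 58 start sites for 31 of the 35 genes, and the 250 bases before each were searched for ACGTG and GCGTG, the forms of the core, on both strands, with overlapping matches counted apart. A match lay before 33 of the 58 start sites (56.9%), against 43.2% of all 35116 start sites. Counted by gene, 25 of the 31 genes had a match before at least 1 start site, against 12945 of all 27305 genes, and so did 4 of the 7 genes called lower, 4 of the 5 called higher and 16 of the 18 not called. Genes differ in their number of start sites, with 7 for HK1, and a gene with more has more chances of a match. The GATA core, searched on both strands as GATA with A or T before it and A or G after it, lay before 9 of the 58 start sites (15.5%), against 22.3% of all. A match is a run of letters and not a site shown to be bound, and the array probes do not tell which start site was used.
The first start sites of 2 genes that fell, HK2 and PFKFB3, and of the lactate dehydrogenase pair are shown, with matches in capitals. The pair was picked because it parted on the arrays and differs in this core, so it is no evidence of a link. SLC2A1 and EGLN3, also called lower, held 0 matches. SLC16A1, also called lower, had no start site among those searched. A link between this core and the calls was not tested.
HK2, chr2:74833877-74834126, plus strand: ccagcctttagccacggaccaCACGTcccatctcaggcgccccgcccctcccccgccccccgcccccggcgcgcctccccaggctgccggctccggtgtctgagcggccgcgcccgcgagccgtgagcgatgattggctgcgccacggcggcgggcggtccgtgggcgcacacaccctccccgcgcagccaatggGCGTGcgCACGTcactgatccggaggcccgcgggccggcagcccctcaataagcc
PFKFB3, chr10:6144671-6144920, plus strand: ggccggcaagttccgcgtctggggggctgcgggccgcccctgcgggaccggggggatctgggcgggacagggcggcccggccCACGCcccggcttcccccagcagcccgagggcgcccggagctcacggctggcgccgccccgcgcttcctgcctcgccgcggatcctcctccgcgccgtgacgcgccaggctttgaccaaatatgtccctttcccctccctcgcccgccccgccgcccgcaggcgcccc
LDHB, chr12:21657843-21658092, minus strand: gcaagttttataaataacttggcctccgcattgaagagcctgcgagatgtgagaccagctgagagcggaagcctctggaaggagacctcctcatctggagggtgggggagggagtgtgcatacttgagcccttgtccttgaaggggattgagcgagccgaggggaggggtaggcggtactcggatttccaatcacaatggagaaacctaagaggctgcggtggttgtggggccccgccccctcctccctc
LDHA, chr11:18394313-18394562, plus strand: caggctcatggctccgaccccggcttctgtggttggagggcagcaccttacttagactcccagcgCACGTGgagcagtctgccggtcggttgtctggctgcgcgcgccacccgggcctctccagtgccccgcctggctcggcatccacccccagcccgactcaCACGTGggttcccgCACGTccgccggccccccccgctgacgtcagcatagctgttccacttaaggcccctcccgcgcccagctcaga
HK2 held 3 matches, PFKFB3 held 1, LDHB held 0 and LDHA held 5, of which 4 overlap in pairs as CACGTG. These counts are for the first start site alone: the second start sites of HK2, PFKFB3 and LDHA held 6, 2 and 1.

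HK2, hexokinase 2, is the inducible enzyme that traps glucose in the cell by phosphorylating it. It gave 11.03, 10.76, 10.58 and 10.73 on siGATA2 arrays 1 to 4 and 12.82, 12.74, 12.80 and 12.72 on siControl arrays 1 to 4, so the groups were far apart and the controls nearly level. HK2 fell by 1.99 (95% interval -2.26 to -1.72, adjusted p = 2.63e-05 from limma), which is 3.98-fold. A second probe for HK2 was near background, with 1 siControl array and 0 siGATA2 arrays on which it stood well above it. HK1, the hexokinase found in most tissues, moved the other way, with 13.84, 13.91, 14.34 and 14.26 against 13.02, 13.58, 13.49 and 13.65, and its lowest siGATA2 array lay above its highest control. HK1 rose by 0.65 (adjusted p = 0.0334 from limma), but the call was lost when siGATA2 array 3 or 4 or siControl array 2 or 3 was left out (adjusted p from 0.0583 to 0.0820). HK1 was at -0.045 when arrays were scaled to spike-in RNA. With that scaling and siControl array 1 left out it was at 0.18 and was not called.

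SLC2A1, the glucose carrier GLUT1, gave 11.84, 11.69, 11.17 and 11.15 against 12.66, 12.38, 12.19 and 12.21. All 4 siGATA2 arrays lay below the controls, and arrays 3 and 4 were the lowest. SLC2A1 fell by 0.90 (95% interval -1.36 to -0.44, adjusted p = 0.0124 from limma), but it was not called, with an adjusted p of 0.0580, when siControl arrays 1 and 3 were left out. SLC2A3, the carrier GLUT3, was dim, with a difference of -0.05 and a probe well above background on all 4 siGATA2 and 2 of the siControl arrays.

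Most enzymes downstream of the hexokinases were not called. GPI, PFKL, PFKM, TPI1, GAPDH, PGK1, PGAM1, ENO1 and PKM, which are the isomerase, the liver and muscle forms of phosphofructokinase, triosephosphate isomerase, and the enzymes of the later steps that lead to pyruvate, did not pass the test, with differences from -0.29 for ENO1 to 0.55 for PGAM1. The 95% intervals leave room for more than that in either direction, for instance -0.81 to 0.23 for ENO1 and 0.06 to 1.04 for PGAM1. GAPDH, often used as a reference transcript, gave 17.00, 17.07, 17.48 and 17.38 against 16.40, 17.10, 17.07 and 17.06, and the groups overlapped. ENO1, enolase 1, was called lower at -0.50 (adjusted p = 0.0295) when siControl array 1 was left out.

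Among these enzymes, PFKP and ALDOC were the exceptions besides the hexokinases. PFKP, the platelet form of phosphofructokinase, gave 12.32, 12.49, 12.64 and 12.72 against 13.24, 12.94, 13.08 and 12.81, so the closest arrays of the groups nearly touched. PFKP fell by 0.47 (adjusted p = 0.0400 from limma), its second probe differed by -0.49, and the call was lost in 6 of the 8 fits that left out 1 array. ALDOC, the brain form of aldolase, gave 12.18, 12.28, 12.60 and 12.52 against 11.31, 11.52, 11.81 and 11.43, with every siGATA2 array above every control. ALDOC rose by 0.88 (95% interval 0.53 to 1.23, adjusted p = 0.00381). With spike-in scaling ALDOC was at 0.24, and with siControl array 1 left out as well at 0.56, and it was called in neither fit.

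At the end of the pathway the lactate dehydrogenase subunits parted. LDHB, the subunit associated with using lactate, gave 15.84, 15.81, 16.09 and 16.11 against 16.96, 17.38, 17.18 and 17.36, with a wide gap between the groups. It fell by 1.26 (95% interval -1.58 to -0.94, adjusted p = 0.000387 from limma), and its second probe fell by 1.33. LDHA, the subunit associated with making lactate and a common HIF target, gave 15.67, 15.63, 16.13 and 16.06 against 15.57, 16.22, 16.20 and 16.12. Its groups overlapped throughout, its difference was -0.16 (95% interval -0.61 to 0.29), and its second probe gave -0.08.

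The carriers of lactate across the cell membrane parted as well. SLC16A1, the monocarboxylate carrier MCT1, gave 7.67, 7.47, 7.50 and 7.52 against 9.96, 9.53, 9.40 and 9.47. The siGATA2 arrays were nearly level, and SLC16A1 fell by 2.05 (95% interval -2.39 to -1.72, adjusted p = 4.96e-05 from limma), which is 4.15-fold. SLC16A3, the carrier MCT4, which exports lactate from glycolytic cells and is a HIF target, gave 10.45, 10.34, 9.98 and 10.27 against 11.12, 9.72, 9.85 and 9.35. siControl array 1 stood above all other arrays for SLC16A3, with a difference of 0.25 over all arrays and of 0.62 (adjusted p = 0.0333) without that array.

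PFKFB3, which makes the main activator of phosphofructokinase, gave 8.96, 8.85, 8.99 and 8.90 against 10.81, 11.06, 10.89 and 11.08. Both groups were tight and about 2 units apart. PFKFB3 fell by 2.03 (95% interval -2.28 to -1.79, adjusted p = 1.93e-05 from limma), the lowest adjusted p of the 34 genes, and a second, dimmer probe fell by 1.68. PFKFB4, a related enzyme, had a difference of -0.29 (95% interval -0.65 to 0.08) and overlapping groups. PDK1, a kinase that inhibits pyruvate dehydrogenase, gave 10.82, 10.75, 11.25 and 11.26 against 11.69, 11.96, 12.01 and 11.72, with no overlap. PDK1 fell by 0.83 (adjusted p = 0.00672), whereas PDK3, of the same family, differed by -0.46 and did not pass (adjusted p = 0.220).

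**Figure D2:**
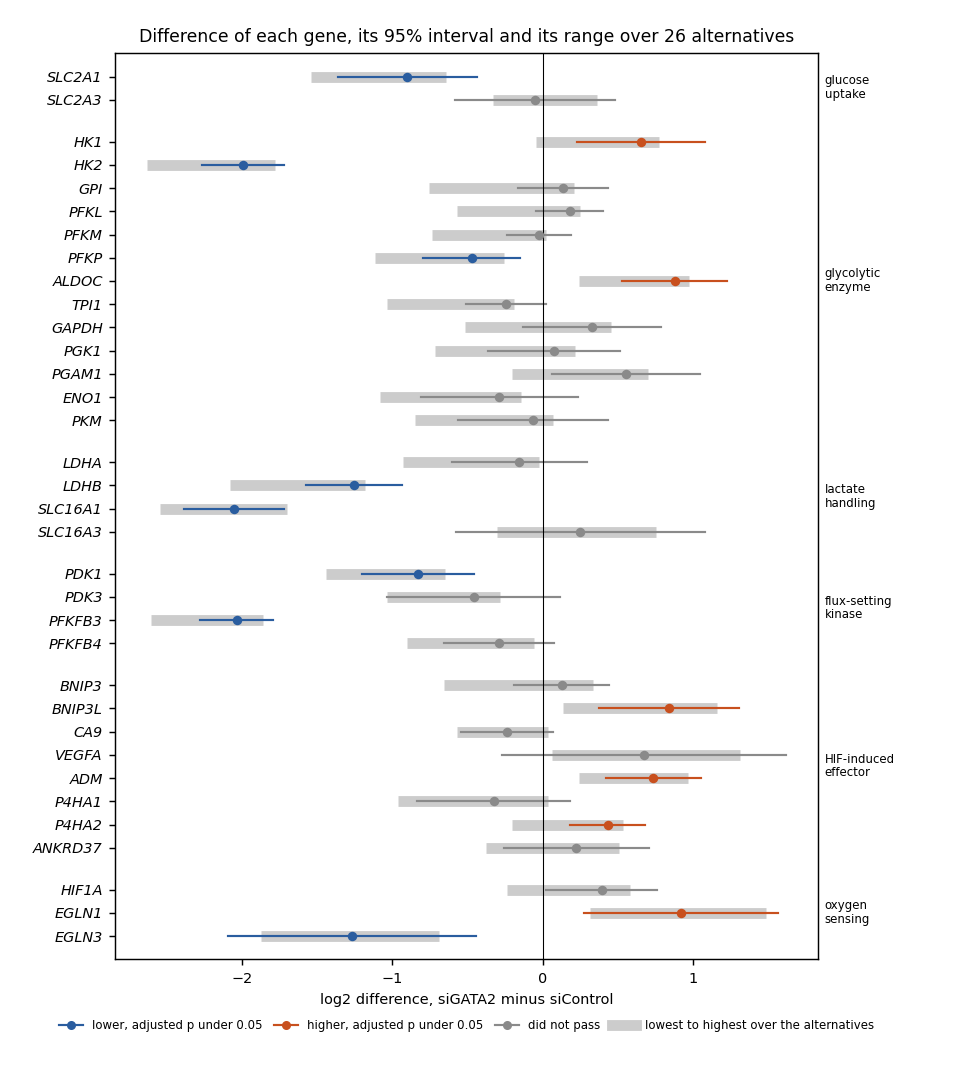
Log2 difference between siGATA2 and siControl arrays (x axis) for the 34 genes by role (y axis), with its 95% interval from limma as a thin line and the lowest to the highest value over 26 alternative settings as a grey bar. HK2, LDHB, SLC16A1 and PFKFB3 stayed below -1 in every setting, while the grey bars of HK1 and P4HA2 reached below 0.

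Of the 8 HIF-induced effector genes, 0 were called lower and 3 higher, against 14.2% and 12.3% of all genes, and P4HA1 was called lower when letters A and B against the rest were taken as a block. BNIP3L, which marks mitochondria for removal, gave 14.44, 14.44, 15.13 and 15.14 against 13.87, 14.13, 13.96 and 13.82. All siGATA2 arrays lay above the controls, arrays 3 and 4 by the most, and BNIP3L rose by 0.84 (adjusted p = 0.0170 from limma), with 1.03 for its second probe. The call was lost without siControl array 4 (0.80, adjusted p = 0.0518). The related BNIP3 differed by 0.13, with overlapping groups.

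ADM, the vasodilator peptide adrenomedullin, gave 8.87, 8.97, 9.29 and 9.31 against 8.51, 8.40, 8.24 and 8.35, again with no overlap. ADM rose by 0.74 (95% interval 0.42 to 1.05, adjusted p = 0.00533 from limma), but lost its call with spike-in scaling. P4HA2, a collagen prolyl hydroxylase subunit, gave 12.11, 12.09, 12.16 and 12.17 against 11.91, 11.65, 11.70 and 11.54. P4HA2 rose by 0.43 (adjusted p = 0.0211), but was at -0.20 with spike-in scaling and lost its call in 5 of the 8 fits without 1 array, while P4HA1, the other subunit form, differed by -0.33 and did not pass.

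VEGFA, the vascular growth factor that is a classic HIF target, did not pass the test (0.67, adjusted p = 0.268 from limma). It gave 11.81, 11.99, 11.04 and 10.97 with siGATA2 and 11.90, 10.48, 10.40 and 10.34 with siControl. On this probe siControl array 1 thus stood with siGATA2 arrays 1 and 2, and without it VEGFA was called higher at 1.05 (adjusted p = 0.0313 from limma). A second probe had siControl array 1 at 11.32, below siGATA2 arrays 1 and 2 (11.80 and 11.83) and above arrays 3 and 4. That probe differed by 0.73 and did not pass (adjusted p = 0.0735 from limma over all probes). CA9, the membrane carbonic anhydrase IX that marks hypoxic tumour cells, was near background, with a probe well above it on 3 siGATA2 and 2 siControl arrays and a difference of -0.24. ANKRD37, another HIF target, differed by 0.23, with overlapping groups.

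The oxygen sensors moved apart. EGLN3, the prolyl hydroxylase PHD3, which is itself induced by HIF, gave 5.59, 5.54, 6.85 and 6.82 against 7.08, 7.78, 7.43 and 7.59. siGATA2 arrays 1 and 2 were far below arrays 3 and 4, which in turn lay just below the lowest control. EGLN3 fell by 1.27 (95% interval -2.09 to -0.45, adjusted p = 0.0327 from limma). EGLN1, PHD2, the main oxygen sensor of most cells, gave 11.40, 11.51, 12.50 and 12.46 against 11.23, 11.09, 10.94 and 10.95. EGLN1 rose by 0.92 (adjusted p = 0.0436), with siGATA2 arrays 3 and 4 about 1 unit above arrays 1 and 2.

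Both calls were weak. EGLN1 lost its call when siGATA2 array 3 or 4 or any 1 siControl array was left out (adjusted p from 0.0589 to 0.101), and EGLN3 when siGATA2 array 1 or 2 or siControl array 2, 3 or 4 was left out (adjusted p from 0.0646 to 0.0873). HIF1A, the regulated alpha subunit of HIF-1, gave 11.81, 11.76, 12.27 and 12.28 against 11.47, 11.76, 11.70 and 11.62. Its siGATA2 arrays lay above the controls by a narrow margin, and it did not pass (0.39, 95% interval 0.02 to 0.76, adjusted p = 0.112 from limma). On its second probe, which differed by 0.33, the groups overlapped. These are transcript signals, and HIF activity is set mostly by the stability of the protein, which the arrays do not measure.

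Ratios of related genes within an array do not depend on how arrays are scaled. The log2 ratio before normalization was taken in 12 pairs of related genes, some of which share a gene. The log2 ratio of HK2 over HK1 shifted by -2.58, that of SLC16A1 over SLC16A3 by -2.24, that of EGLN3 over EGLN1 by -1.98, that of PFKFB3 over PFKFB4 by -1.70 and that of LDHB over LDHA by -1.15. The groups overlapped only for PFKM over PFKL, with a shift of -0.17, the only pair without a called gene. Every other pair held a called gene, whose own groups did not overlap, so the separation of these ratios is not separate support. No share over other gene pairs was taken. Ratios that shifted upward were those of BNIP3L over BNIP3, by 0.79, and of P4HA2 over P4HA1, by 0.76. A shift shows that a pair changed unequally and not which gene moved.

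**Figure D3:**
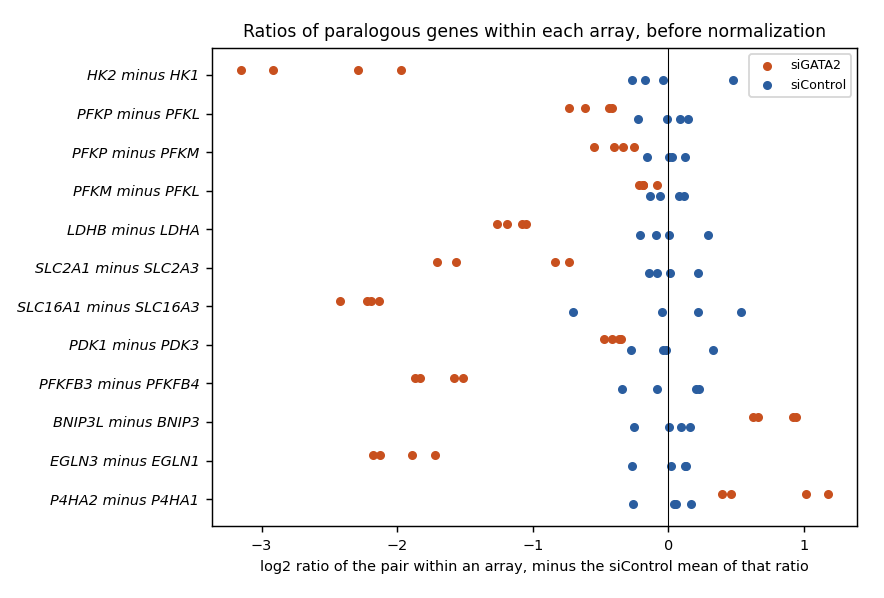
Log2 ratio of the signals of 2 related genes within an array, before normalization, minus the siControl mean of that ratio (x axis), for 12 pairs (y axis). Each point is 1 array, orange for siGATA2 and blue for siControl, and only the PFKM and PFKL pair shows overlapping groups. Every other pair holds a called gene, whose own groups did not overlap.

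Arrays of 1 group also differed among themselves, for the 34 genes about as for all genes. With the titles' letters as a guide, siGATA2 arrays 1 and 2 (A and B) minus arrays 3 and 4 (E and F), and siControl array 1 (B) minus arrays 2 to 4 (D, F and G), had the same sign for 26 of the 34 genes (76.5%), against 71.4% of all genes tested. VEGFA was higher on the arrays with letters A and B, by 0.89 within siGATA2 and 1.49 within siControl, as was P4HA1, by 0.54 and 0.65. PDK3, by -0.67 and -0.73, and EGLN3, by -1.27 and -0.53, were lower there, and GAPDH, PGK1, PGAM1, ENO1, PKM and LDHA were lower there too, with values from -0.55 to -0.34 within siGATA2. What the letters stand for, and their part in these shifts, was not tested.

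Differences were also taken within each set of letters. Since the groups of all 14 called genes did not overlap, their sign within a set was fixed in advance, and the sizes alone are given here. HK2 was at -1.93 within A and B and at -2.09 within D to G, PFKFB3 at -1.90 and -2.07, SLC16A1 at -2.39 and -1.96, and LDHB at -1.14 and -1.20. EGLN1, by contrast, was at 0.23 within A and B and at 1.49 within D to G. With the letter sets as a block, a fit chosen after seeing the data, 12 of the 34 genes were called lower and 10 higher, against 5757 and 7198 of all 28850 genes. The genes gained were PGAM1 (0.70), HIF1A (0.49), GAPDH (0.46) and PGK1 (0.20), which were higher, and P4HA1 (-0.47), PFKFB4 (-0.38), PDK3 (-0.28) and TPI1 (-0.19), which were lower, with adjusted p from 0.000168 to 0.0384 from limma. The letters A and B hold 1 control array, so the values within A and B rest on it. A fit of letters D to G alone, also chosen after seeing the data, leaves that array out. It called the genes gained in the same directions, with adjusted p from 0.00183 to 0.0467 from limma. There PGAM1 was at 0.67, HIF1A at 0.58, GAPDH at 0.35 and PGK1 at 0.21. P4HA1 was at -0.43, PFKFB4 at -0.46, PDK3 at -0.31 and TPI1 at -0.22.

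**Figure D4:**
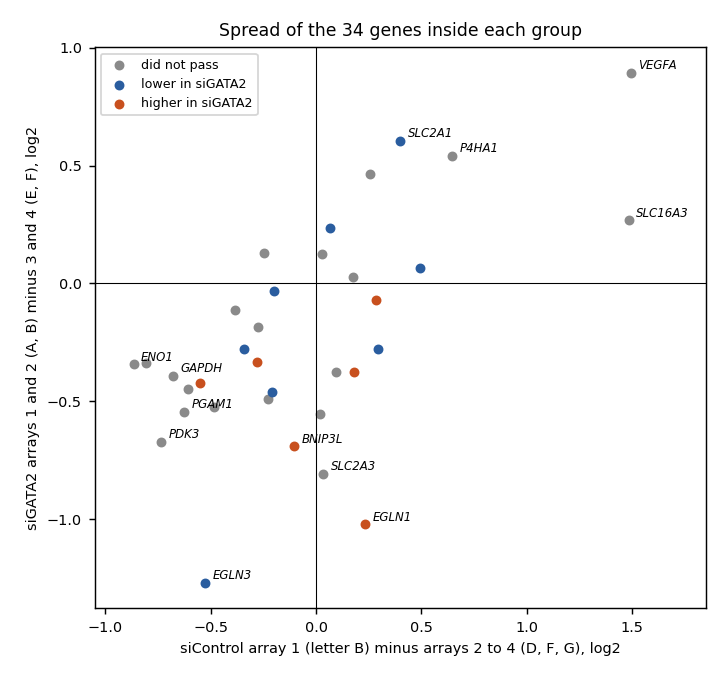
Spread of the 34 genes inside each group, as the log2 difference of siControl array 1 from arrays 2 to 4 (x axis) against that of siGATA2 arrays 1 and 2 from arrays 3 and 4 (y axis). Each point is 1 gene, coloured by its call, and 26 of the 34 lie in the lower left or upper right quadrant, with VEGFA at the upper right and EGLN3 at the lower left.

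Genes around the pathway were read from 3 further lists with 107 genes, of which 102 were tested. Among them 19 were called lower and 20 higher, 18.6% and 19.6% against 14.2% and 12.3% of all genes, and their median difference was 0.14. Their median signal was 10.9, against 8.32 for all genes. Of 38 other genes of glycolysis and pyruvate metabolism, 4 were lower (10.5%) and 8 higher (21.1%). The lower ones were SLC16A7, the monocarboxylate carrier MCT2 (-1.61), GPD2, a mitochondrial glycerol phosphate dehydrogenase (-1.23), SLC2A4, the carrier GLUT4 (-0.96), and PDP2, a phosphatase that activates pyruvate dehydrogenase (-0.78). Among the higher ones were the enolases ENO2 (1.95, adjusted p = 4.04e-05 from limma) and ENO3 (2.23, adjusted p = 0.0147), FBP2, a muscle fructose bisphosphatase (3.20), and PFKFB1 (0.97). FBP2 and PFKFB1 were each well above background on only 2 siControl arrays, so the size of their rise is uncertain. ENO3 was at 12.89 on siControl array 1 against 11.45 to 11.50 on the other controls. Its call was lost with spike-in scaling, with slide row as a block and with the close siGATA2 arrays averaged.

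Of 21 components of the HIF pathway, 4 were called lower (19.0%) and 2 higher (9.52%), near the 14.2% and 12.3% of all genes. CITED2, which competes with HIF for its coactivator, gave 11.78, 11.71, 12.09 and 12.12 with siGATA2 against 13.65, 13.39, 13.51 and 13.40, and fell by 1.56 (adjusted p = 0.000122 from limma). The groups lay more than 1 unit apart. ARNT2, a partner subunit (-0.74), ELOB, elongin B of the ubiquitin ligase that marks HIF (-0.71), and SIAH2, a ligase that acts on prolyl hydroxylases (-0.64), were also lower. ARNT2 was at -0.26 and was not called (adjusted p = 0.183 from limma) when the probes of a gene were averaged. EPAS1, which encodes HIF-2 alpha, gave 8.05, 8.22, 9.03 and 9.29 against 7.16, 7.48, 6.93 and 7.42, and rose by 1.40 (adjusted p = 0.0100), while OS9 rose by 0.44 but was at -0.25 with spike-in scaling. EPAS1 lost its call with spike-in scaling and with siControl arrays 1 and 3 left out. OS9 lost its call when siGATA2 array 1 or 2 or siControl array 2, 3 or 4 was left out (adjusted p from 0.0750 to 0.0880).

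Of 43 other hypoxia-induced genes tested, 11 were called lower (25.6%) and 10 higher (23.3%), against 14.2% and 12.3% of all genes. Among genes with a mean signal of at least 12, 21.4% were called lower and 18.2% higher. PYGL, the liver glycogen phosphorylase, gave 7.80, 7.55, 8.16 and 8.19 against 10.94, 11.52, 11.50 and 11.44, and fell by 3.43 (adjusted p = 2.43e-05 from limma). CA12, carbonic anhydrase XII, fell by 3.13, TMEM45A, a membrane protein, by 2.39, and PLOD1, a collagen lysyl hydroxylase, by 1.58. NDRG1, a hypoxia-induced gene that is also androgen-regulated in prostate cells, gave 16.02, 15.97, 16.28 and 16.18 against 15.10, 14.82, 14.95 and 14.76, and rose by 1.21 (adjusted p = 0.000266). VLDLR, a lipoprotein receptor, rose by 1.50 and PNRC1, a nuclear receptor coactivator, by 1.18. ANGPTL4, a lipoprotein lipase inhibitor, was called higher at 2.07 over all arrays and at 1.39 without siControl array 3, on which it was listed at 2.44 against 5.03 to 5.29 on the other controls. Its call was lost in 6 of the 8 fits without 1 array, those without any siGATA2 array or without siControl array 2 or 4.

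**Figure D5:**
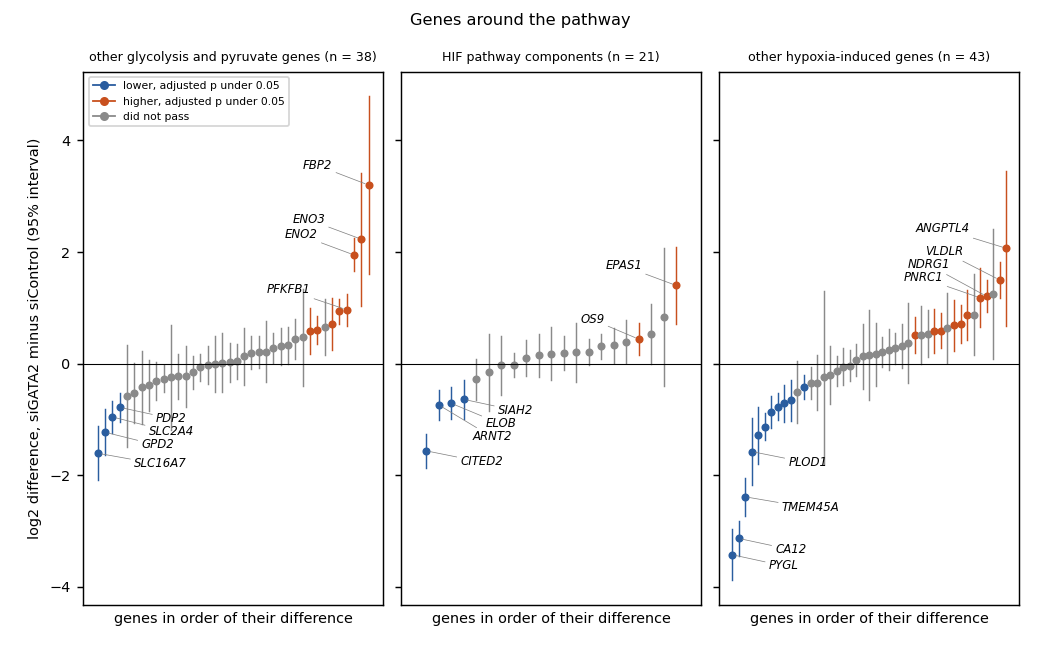
Log2 difference between siGATA2 and siControl arrays with its 95% interval (y axis) for the 102 further genes in 3 lists, in order of their difference (x axis). Blue and orange mark genes called lower and higher, and each list holds both, from PYGL at -3.43 to FBP2 at 3.20.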

How the data were processed

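RNA of LNCaP cells was measured on 8 Agilent arrays of 1 colour, all on 1 slide, with 4 arrays in each of the groups siGATA2 and siControl. Per the submitters' processing notes, the authors used Agilent Feature Extraction 11.0.1.1, and the deposited scanner files give spot intensity corrected for background, with flags for outliers and for signals well above background. The authors also deposited log2 values after quantile normalization, used here as an alternative. The array design named in the file headers (028004) is not the one in the study's methods, and gene names rest on the files.

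Control spots and outlier spots were left out, log2 intensities were quantile normalized, and probes that had no gene name, or whose mean log2 value was below 3, were dropped, as the study's methods describe. The brightest probe stood for a gene. Groups were compared with limma 3.58.1 in R 4.3.3, without covariates, with Benjamini-Hochberg adjustment over 28850 genes, and the fit was tested on simulated data. Genes with a probe named by a RefSeq accession took the symbol of the RefSeq table. The 4 arrays per group limit the precision, and no array had saturated spots: between 23994 and 36729 probes per array were well above background.

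The genes, the lists around them and the tests were chosen with earlier results of these data known. All listed genes were named, together with, from each further list, the 4 called genes with the largest fall and rise with no overlap between groups and a probe that all arrays of 1 group detected well above background. The alternatives tried were 75th percentile scaling, scaling by 7 spiked-in E1A probes, normexp correction of the median signal with an offset of 50, other filters and probe rules, the methods' t-test, an intensity trend, array weights, blocks by replicate number, title letter and slide row, and leaving out arrays. Array numbers follow the order of the samples. They name an array and pair none. Slide and scan could not be used as a block, since all arrays lay on 1 slide. Some genes of the marker list are not reported here. Promoter sequences come from RefSeq, GRCh38.p14.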

Additional observations from a re-analysis of the deposited data

Results flagged for a closer look

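In 138 groups of 4 arrays, over 69 named genes, 19 held 1 array far from the other 3 by Dixon's test at 95%. That test flags about 1 of 20 groups of independent values, a rate that need not hold for these arrays. The siGATA2 arrays lay in close pairs, so 1 of them could hardly stand apart from the other 3. Of the 19 flags, 14 were on siControl array 1. On that array the glycolytic transcripts GAPDH (16.40), PGK1 (15.71), PGAM1 (15.07), ENO1 (15.26), PKM (15.18) and LDHA (15.57) lay below the other 3 controls, as did PDK3 (9.97), FBP2 (1.78), PYGL (10.94) and KLK2 (12.72). VEGFA (11.90), PFKM (15.11), ENO3 (12.89) and COL1A1 (9.84) lay above them. The remaining flags were BNIP3 on siControl array 4 (15.65), GPD2 (11.08), ANGPTL4 (2.44) and KRT14 (6.45) on siControl array 3, and SLC2A4 on siGATA2 array 4 (7.80). siControl arrays 1 and 3 also had the widest spread of negative control spots, with SDs of 4.49 and 7.26 against 1.78 to 2.40 on the other 6 arrays, and its part in these values was not tested.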

How the results depend on the processing

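HK2, LDHB, SLC16A1 and PFKFB3 passed the test in the same direction under all 26 alternatives. The other 10 called genes lost their call under at least 1, and 15 of the 20 uncalled genes passed under at least 1. No share over all genes was taken for these counts, so they are not particular to the 34 genes. Some alternatives called far more of all genes. Array weights called 26.1% lower and 27.9% higher, against 14.2% and 12.3% in the fit described above. The count of genes called lower, 8, became 5 with E1A spike-in scaling, with siControl arrays 1 and 3 left out, with the close siGATA2 arrays averaged and for at least 2-fold, 13 with array weights, and 12 with a block that sets letters A and B apart from D to G and with letters D to G alone. The count called higher, 6, became 3 with 75th percentile scaling, 0 with E1A scaling and for at least 2-fold, 1 with E1A scaling without siControl array 1, 2 with the siGATA2 arrays averaged, 10 with the letter block and 12 with letters D to G, and lay between 3 and 7 when 1 array was left out. Of all 28850 genes, 5757 and 5621 were called lower and 7198 and 6890 higher with the letter block and with letters D to G, against 4086 and 3558 over all arrays. With siControl arrays 1 and 3 left out, 12.9% of all genes were called lower. The share of all genes called higher was 14.1% with 75th percentile scaling and 6.16% with E1A scaling without siControl array 1. It was 7.57% with slide row as a block, and lay between 8.98% and 13.9% when 1 array was left out. The median difference, -0.035, became -0.12 with 75th percentile scaling, -0.72 with E1A scaling, -0.36 with E1A scaling without siControl array 1, 0.043 with slide row as a block, 0.058 with the letter block and 0.051 with letters D to G, and lay between -0.088 and 0.053 without 1 array. E1A scaling moved the median of all genes from 0.088 to -0.43 and rests on siControl array 1, where the brightest E1A probe read 16.34 before normalization against 18.30 to 18.57 elsewhere. Under it HK1 was at -0.045, P4HA2 at -0.20 and OS9 at -0.25. With siControl array 1 left out as well, HK1 was at 0.18, and HK1, P4HA2 and OS9 were not called. Of the 102 genes around the pathway, 19 lower became 8 with E1A scaling, 33 with array weights and 9 for at least 2-fold, and 20 higher became 1 with E1A scaling, 9 with E1A scaling without siControl array 1, 11 with slide row as a block, 8 with the siGATA2 arrays averaged and for at least 2-fold, and 38 with the letter block and with letters D to G, and lay between 13 and 19 without 1 array. GATA2, at 0.68, passed the test at 1.10 with array weights and at 0.47 with the letter block. Replicate numbers, given in the order of the samples, do not pair arrays: deviations of same-numbered arrays correlated at 0.54, -0.31, 0.17 and 0.22. With the replicate number as a block, 7 of the 34 genes were called lower and 4 higher, against 12.9% and 11.7% of all genes. PFKP, P4HA2 and EGLN1 lost their calls. With that block 19 and 20 of the genes around the pathway were called, the median was -0.035 and GATA2 was at 0.68. The letter fits, the averaged arrays and E1A scaling without siControl array 1 were chosen after seeing the data. Slide as a block was not run, since there was 1 slide, and the cause of these changes was not tested.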
